A study of Homo sapiens with 6 samples.

Results

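The aminoacyl-tRNA synthetases were examined in RNA sequencing counts of MV4-11, a human line of acute myeloid leukaemia (AML) with the *FLT3*-ITD mutation. The 35 genes were taken from a list of symbols that did not use any measured value, 19 for enzymes of the cytosol and 16 for enzymes of the mitochondrion. Of the 61806 genes with a row of counts, 19149 had enough counts to be tested, and all 35 synthetase genes were among them. A synthetase gene had between 418 and 42034 counts in a library.

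The study compared cells with a control shRNA (libraries shNC 1 to 3) with cells labelled as carrying an shRNA against *ATGL* (libraries shATGL 1 to 3), the gene of adipose triglyceride lipase, which releases fatty acids from stored fat. Both arms were MV4-11 cells with a lentiviral shRNA vector, and the labels give neither the shRNA sequence used in a library nor whether the libraries of a group came from separate cultures. P-values below therefore measure the spread between these libraries, which may be technical. The study's methods give TRIzol for the RNA, while the labels name TRIzol and a column kit and describe amplified cDNA, so the sources differ on the preparation.

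*ATGL* is listed as *PNPLA2*. It was at 101, 97.0 and 107 CPM (counts relative to a library of 1e+06) in shNC 1 to 3 and at 102, 98.1 and 104 CPM in shATGL 1 to 3. The groups overlapped, and the log2 fold change was −0.01 (standard error, SE, 0.06, edgeR quasi-likelihood adjusted p = 0.979, permutation test p = 1). It went above 0 without shNC 3 (0.03) or without shATGL 2 (0.02). Directions are therefore given for "the libraries labelled shATGL", not for cells with less *ATGL*. Total counts ranged from 59674064 to 74808280. The myeloid markers *CD33*, *FLT3*, *SPI1*, *CSF1R*, *ITGAM*, *LYZ*, *MPO* and *PTPRC* had counts in every library, with *MPO* lowest at 3.46 to 4.65 CPM. *CD3D*, *MS4A1*, *HBB*, *EPCAM*, *KRT19* and *COL1A2* were at 0 in all 6, and *CD3E* and *COL1A1* stayed at or below 0.252 CPM.

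Each synthetase joins an amino acid to the tRNAs that carry its codons, which supplies the ribosome with charged tRNA. Cytosol and mitochondrion translate separately, and most amino acids have an enzyme for each compartment, both encoded in the nucleus. In the cytosol several of the enzymes are held on scaffold proteins in the multisynthetase complex, and many synthetase genes are described targets of ATF4, the transcription factor of the amino acid response.

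The promoters of the synthetase genes were searched for 2 motifs, and the amino acid response element was found in cytosolic genes and in no mitochondrial gene. Its letters are TGATGCAA, to which ATF4 is known to bind with C/EBP proteins. Promoters were read from RefSeq (build GRCh38.p14), from 250 bases before to 50 bases after each start site, and both strands were searched. Of the 35 genes 30 had an entry, 16 cytosolic and 14 mitochondrial. *AARS2*, *LARS1*, *VARS1*, *VARS2* and *YARS1* had none. The letters were found in 6 of 16 cytosolic genes (37.5%) and 0 of 14 mitochondrial genes, against 1.08% of all 27305 genes with a promoter. The 6 sites are printed below, 30 bases each and 5′ to 3′ on the strand of the gene, with the element in capitals. In 5 of them it reads TTGCATCA, its reverse complement.
AARS1: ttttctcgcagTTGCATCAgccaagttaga
CARS1: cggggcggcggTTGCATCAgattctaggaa
IARS1: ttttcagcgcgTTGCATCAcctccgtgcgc
MARS1: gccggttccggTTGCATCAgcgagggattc
NARS1: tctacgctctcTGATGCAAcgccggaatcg
TARS1: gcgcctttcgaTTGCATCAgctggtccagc
They lie at chr16:70289675-70289704 (minus strand, *AARS1*), chr11:3057407-3057436 (minus, *CARS1*), chr9:92293692-92293721 (minus, *IARS1*), chr12:57488053-57488082 (plus, *MARS1*), chr18:57621804-57621833 (minus, *NARS1*) and chr5:33440956-33440985 (plus, *TARS1*). The element began 187 bases before the start site in *AARS1*, 13 in *IARS1*, 4 in *MARS1* and 2 in *CARS1*, and after the start site in *NARS1* and *TARS1*. The E box CACGTG, the site of MYC and related factors, was found in 3 of 14 mitochondrial genes (*CARS2*, *EARS2* and *MARS2*, 21.4%) and in 1 of 16 cytosolic genes (*IARS1*), against 8.77% of all genes. A match of letters does not show that a factor binds there.

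Levels were compared between genes per length, as TPM (counts divided by the union of each gene's exons and scaled to 1e+06 in a library). The cytosolic enzymes together reached 2088 ± 98.3 TPM (SD, n = 3) in shNC and 2276 ± 239 TPM (SD, n = 3) in the libraries labelled shATGL. The mitochondrial enzymes reached 518 ± 22.8 and 558 ± 31.0 TPM (SD, n = 3 each). The cytosolic sum was 4.05 times the mitochondrial sum on average, between 3.82 and 4.20 times in the 6 libraries. *KARS1* (157 TPM) and *GARS1* (108 TPM) encode the enzyme of both compartments but were counted as cytosolic only, and the ratio depends on this assignment. With the longest transcript as the length the ratio was 4.66.

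**Figure D1:**
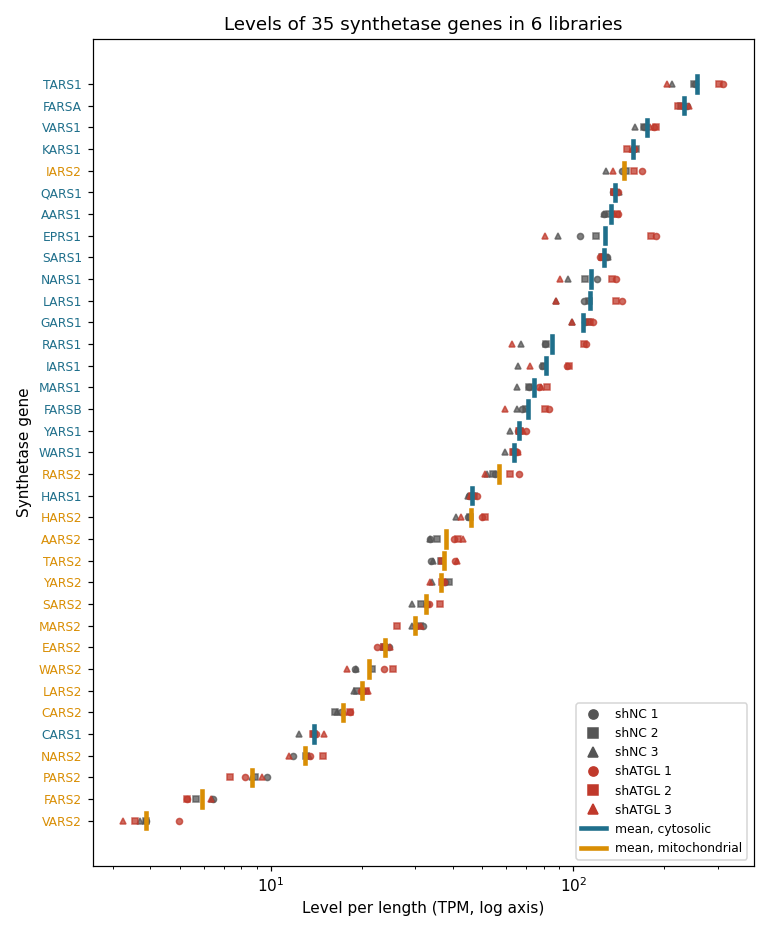
Level per length of each synthetase gene (horizontal log axis, TPM) in the 3 shNC libraries (grey) and the 3 libraries labelled shATGL (red), with the mean of the 6 as a vertical bar (blue for cytosolic, orange for mitochondrial). *TARS1* stands highest at a mean of 256 TPM and *VARS2* lowest at 3.87 TPM, and *IARS2* and *RARS2* are the mitochondrial genes among the 20 highest.

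*TARS1*, which charges threonine, was the highest at 256 ± 45.3 TPM over the 6 libraries (SD), followed by *FARSA*, the alpha subunit of the phenylalanine enzyme, at 232 ± 6.75 TPM and *VARS1* for valine at 175 ± 10.2 TPM. *TARS1* and *FARSA* overlapped between libraries, while every library's *FARSA* level was above every library's *VARS1* level. With the longest transcript as the length *TARS1* and *FARSA* were again highest, but *KARS1* (204 TPM) and *SARS1* (199 TPM) stood above *VARS1* (192 TPM). *IARS2*, the mitochondrial isoleucine enzyme, was at 148 ± 14.6 TPM and stood among the cytosolic enzymes. The next mitochondrial genes were *RARS2* for arginine at 56.7 ± 6.04 TPM and *HARS2* for histidine at 45.7 ± 3.99 TPM. Of the 20 highest genes 18 were cytosolic. The one cytosolic gene in the low range was *CARS1*, the cysteine enzyme, at 13.9 ± 0.848 TPM. At the bottom stood *PARS2* (8.67 TPM), *FARS2* (5.91 TPM) and *VARS2* (3.87 TPM), which charge proline, phenylalanine and valine in the mitochondrion. *VARS2* shares 1858 exon bases with *GTF2H4* on the same strand, so its reads cannot be told apart from that gene's there. In this order 26 of the 34 neighbouring genes had overlapping ranges over the 6 libraries and 8 were apart.

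The balance between the compartments differed by amino acid. The cytosolic gene was at 46.1 ± 6.69 times the level per length of the mitochondrial one for valine (*VARS1* over *VARS2*), at 39.4 ± 2.83 times for phenylalanine (*FARSA* over *FARS2*) and at 12.2 ± 2.70 times with the beta subunit (*FARSB* over *FARS2*). For asparagine (*NARS1* over *NARS2*) it was 8.80 times, for threonine 6.89 times and for leucine 5.67 times. *EPRS1*, which joins the glutamate and proline enzymes in a single protein, was at 5.39 times *EARS2* and 15.1 times *PARS2*. Ratios were 3.88 for serine, 3.54 for alanine, 3.06 for tryptophan, 2.49 for methionine, 1.82 for tyrosine and 1.49 for arginine. The serine ratio is uncertain, because *SARS2* shares 1492 of its 3231 exon bases with ENSG00000269547 on the same strand. That gene was at 0 CPM, and how reads in the shared bases were counted is not known. For histidine the levels were equal within their spread (*HARS1* over *HARS2*, 1.01 ± 0.0694), although these neighbours run on opposite strands and share 437 exon bases. *HARS2* also shares 152 exon bases with *ZMAT2* on the same strand. For cysteine (*CARS1* over *CARS2*, 0.801 ± 0.0497) and isoleucine (*IARS1* over *IARS2*, 0.550 ± 0.0350) the mitochondrial gene was higher in all 6 libraries. With the longest transcript as the length the ratio for tyrosine was 4.55, for methionine 4.87, for tryptophan 4.60, for histidine 1.53, for cysteine 0.471 and for isoleucine 0.748, so the first 5 of these depend on the length used by more than 1.5 times.

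No synthetase gene differed between the groups at an adjusted p-value under 0.05 (edgeR's quasi-likelihood test on all 6 libraries, smallest adjusted p = 0.400). Of all genes tested, 0.00522% passed. No synthetase gene reached a fold change of 2, and the 95% confidence interval of each of the 35 excluded it. At an unadjusted p-value under 0.05, 0 genes were higher, where 5.77% of all genes were, and 3 were lower (*KARS1*, *SARS1* and *YARS2*), where 5.94% of all genes were. DESeq2 gave 0 genes at either threshold. With TMM scaling 24 of 35 genes were lower in the libraries labelled shATGL (68.6%), against 48.1% of all genes tested. The median log2 fold change was −0.03 for the cytosolic enzymes (12 of 19 lower) and −0.04 for the mitochondrial enzymes (12 of 16 lower), against 0.01 for all genes. These directions depend on the scaling. On the TPM scale, an alternative chosen after seeing the data, the difference of mean log2 levels was 0.14 higher for every gene than with TMM-scaled CPM. By this measure 24 of 35 synthetase genes were lower on the CPM scale and 8 on the TPM scale, against 24.7% of the 17874 genes with a TPM above 0 in every library. Relative to the median of all genes, 24 of the 35 were lower with TMM scaling and 25 on the TPM scale.

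**Figure D2:**
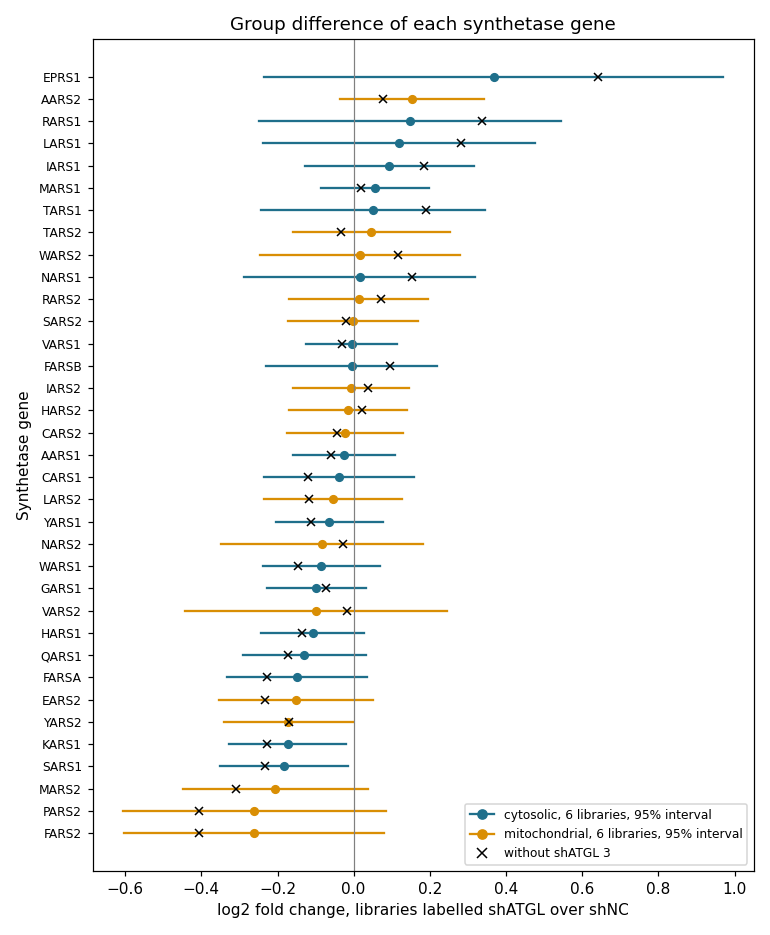
log2 fold change of each synthetase gene, libraries labelled shATGL over shNC (horizontal axis, TMM scaling), with its 95% confidence interval from edgeR (blue for cytosolic, orange for mitochondrial), and the value without shATGL 3 (black cross). The values run from −0.26 for *FARS2* to 0.37 for *EPRS1*, with 24 of 35 under 0 (8 of 35 on the TPM scale), and the crosses of *EPRS1*, *RARS1* and *LARS1* lie farther right.

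*KARS1* encodes the lysine enzyme of both compartments through alternative splicing (chr16:75627474-75648643, minus strand, GENCODE 29 on GRCh38). It was at 226, 228 and 240.2 CPM in shNC 1 to 3 and at 202, 194 and 219.7 CPM in shATGL 1 to 3. Every library labelled shATGL was below every shNC library, with a log2 fold change of −0.17 (SE 0.07, unadjusted p = 0.0313, edgeR adjusted p = 0.400). The gene shares 176 exon bases with *TERF2IP* on the opposite strand, and in bulk RNA fewer cells with a transcript and less of it in each cell cannot be told apart. *SARS1*, the cytosolic serine enzyme (chr1:109213918-109238169, plus strand), was at 174, 166 and 187 CPM and at 147, 153 and 165 CPM. Its groups did not overlap either, by a narrow margin between shNC 2 and shATGL 3, with a log2 fold change of −0.18 (SE 0.07, edgeR adjusted p = 0.409). *YARS2*, the mitochondrial tyrosine enzyme (chr12:32727490-32755902, minus strand), was at 28.5, 29.1 and 27.5 CPM and at 25.3, 25.2 and 25.0 CPM. The 3 libraries labelled shATGL were nearly equal and all below shNC, with a log2 fold change of −0.17 (SE 0.07, edgeR adjusted p = 0.421). For each of these 3 genes the exact permutation test gave p = 0.1, the smallest that the 20 relabellings of 3 against 3 allow. Over all 35 synthetase genes, the number under an unadjusted p of 0.05 (edgeR) was 0 without shNC 1, without shNC 3 or without shATGL 2, and 17 without shATGL 3. It was 1 without shNC 2 (*SARS1*) and 1 without shATGL 1 (*VARS2*). The share of all genes under the unadjusted p is not given for these fits, so the 17 is not read as particular to synthetase genes. Without shATGL 3, 7.94% of all genes tested were higher and 6.07% lower even at an adjusted p-value under 0.05 (edgeR).

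**Figure D3:**
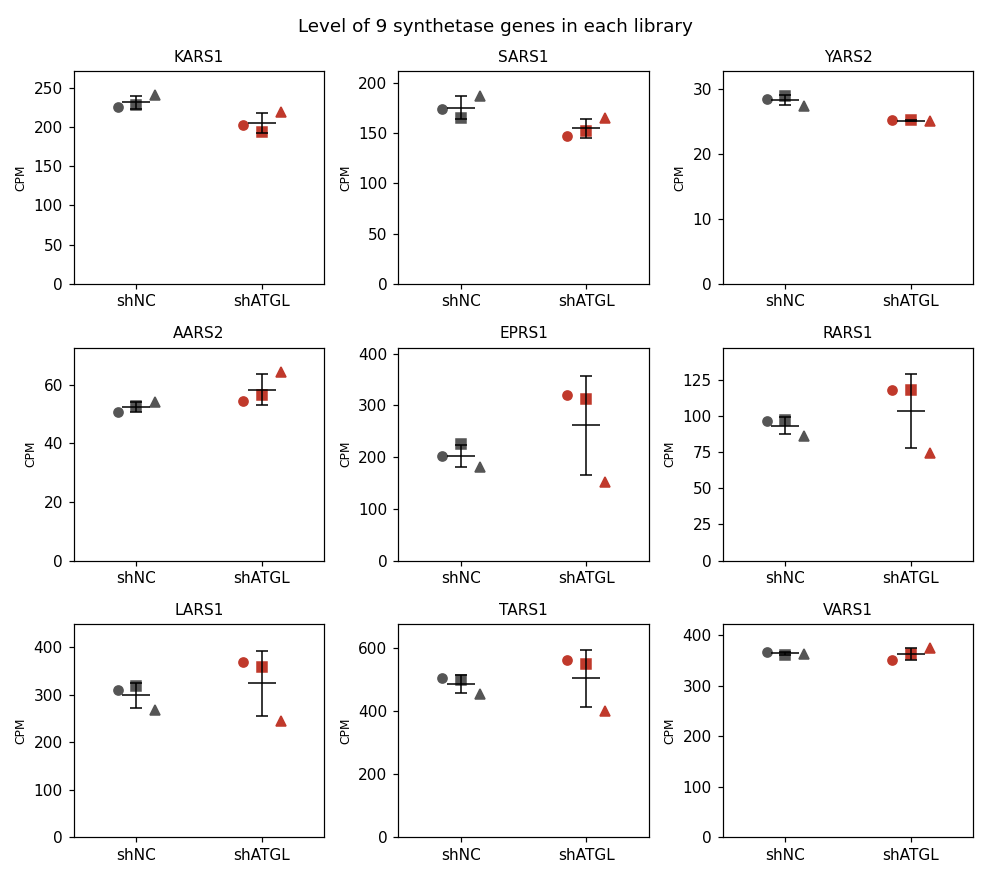
Level of 9 synthetase genes in each library (vertical axis, CPM from 0) for shNC (grey) and the libraries labelled shATGL (red), with circle, square and triangle for replicates 1, 2 and 3 and the mean ± SD of each group in black. *KARS1*, *SARS1* and *YARS2* show groups that do not overlap, while in *EPRS1*, *RARS1*, *LARS1* and *TARS1* shATGL 3 lies below every other library.

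In all, 5 of 35 synthetase genes had every library labelled shATGL below every shNC library, where 9.38% of all genes tested did. The other two were *GARS1*, the glycine enzyme of both compartments, at 159, 161 and 154 CPM against 151, 149 and 142 CPM, and *HARS1*, at 124, 128 and 132 CPM against 119, 115 and 123 CPM. Their log2 fold changes were −0.10 and −0.11 (edgeR adjusted p = 0.514 and 0.495). In 1 gene, *AARS2*, every library labelled shATGL was above shNC, where 7.93% of all genes were. This mitochondrial alanine enzyme was at 50.7, 52.7 and 54.1 CPM against 54.4, 56.6 and 64.3 CPM. Its lowest value labelled shATGL was only just above shNC 3, and the log2 fold change was 0.15 (SE 0.08, edgeR adjusted p = 0.489). On the TPM scale 0 synthetase genes were wholly below and 7 wholly above (*AARS1*, *MARS1*, *VARS1*, *AARS2*, *CARS2*, *SARS2* and *TARS2*), against 3.60% and 19.2% of the 17874 genes.

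Among these most abundant genes, *VARS1* was the steadiest on the CPM scale, at 367, 362 and 364 CPM in shNC and 351, 362 and 375 CPM in shATGL. Its log2 fold change was −0.01 (95% confidence interval −0.13 to 0.11). On the TPM scale *FARSA* (232 ± 6.75 TPM, SD) varied less than *VARS1* (175 ± 10.2 TPM). There *VARS1* was at 172, 171 and 160 TPM in shNC and 184, 188 and 179 TPM in shATGL. *TARS1* was at 507, 499 and 454 CPM and at 562, 549 and 401 CPM, so that shATGL 1 and 2 were above all shNC libraries and shATGL 3 below them. *FARSA* was at 204, 192 and 213 CPM and at 176, 172 and 202 CPM, with shATGL 3 inside the range of shNC. Of the mitochondrial genes, *IARS2* was at 212, 216 and 201 CPM and at 219.97, 210.1 and 195 CPM. *RARS2* was at 49.3, 47.8 and 49.3 CPM and at 53.0, 49.8 and 44.9 CPM. *HARS2* was at 58.7, 59.3 and 57.2 CPM and at 58.3, 60.4 and 54.7 CPM. In all 3 shATGL 3 was the lowest of the 6 libraries, and the groups overlapped.

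The libraries labelled shATGL were not alike for a group of cytosolic genes. *EPRS1* (chr1:219968601-220046658, minus strand) was at 202, 225 and 182 CPM in shNC 1 to 3 and at 321, 313 and 151 CPM in shATGL 1 to 3. Thus shATGL 1 and 2 were the highest libraries and shATGL 3 the lowest, at 47.7% of their mean. *RARS1*, for arginine, was at 96.6, 96.9 and 86.3 CPM and at 118, 118 and 74.2 CPM. *LARS1*, for leucine, was at 309.6, 317 and 267 CPM and at 368, 357 and 245 CPM. Both repeated the order of *EPRS1*, with shATGL 3 at 62.9% and 67.4% of the mean of shATGL 1 and 2. *NARS1* stood at 72.5%, *TARS1* at 72.2%, *FARSB* at 79.5%, *WARS2* at 79.8% and *IARS1* at 81.6%. In shNC, replicate 3 stood at 85.3% of the mean of replicates 1 and 2 for *EPRS1*, 85.2% for *LARS1* and 89.2% for *RARS1*. At the other end *FARS2* and *PARS2* were higher in shATGL 3, at 131% and 132% of the mean of shATGL 1 and 2.

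The split went with the base composition of the transcripts. All 11 synthetase genes whose longest transcript has under 45% GC were lower in shATGL 3 than in the mean of shATGL 1 and 2 (median log2 difference −0.33), against 4 of 24 genes at or over 45% (median 0.14). Over all genes tested with a known GC content, 70.7% of 6634 under 45% were lower (median −0.21), against 36.0% of 11932 at or over it (median 0.09). The limit of 45% was not planned, and among the synthetase genes it falls in a gap between 44.3% and 46.6% GC. Across the 35 genes Spearman's rho between GC content and the difference was 0.62, and across 18566 genes it was 0.37. With transcript length it was −0.09 and −0.15. These are descriptions across genes, which share their libraries, and the part of base composition in the group differences was not tested. When each library's trends with length and GC were corrected, the log2 fold change of *LARS1* went from 0.12 to −0.02, and those of *IARS1*, *NARS1*, *TARS1*, *RARS2* and *WARS2* also went from above 0 to below it.

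**Figure D4:**
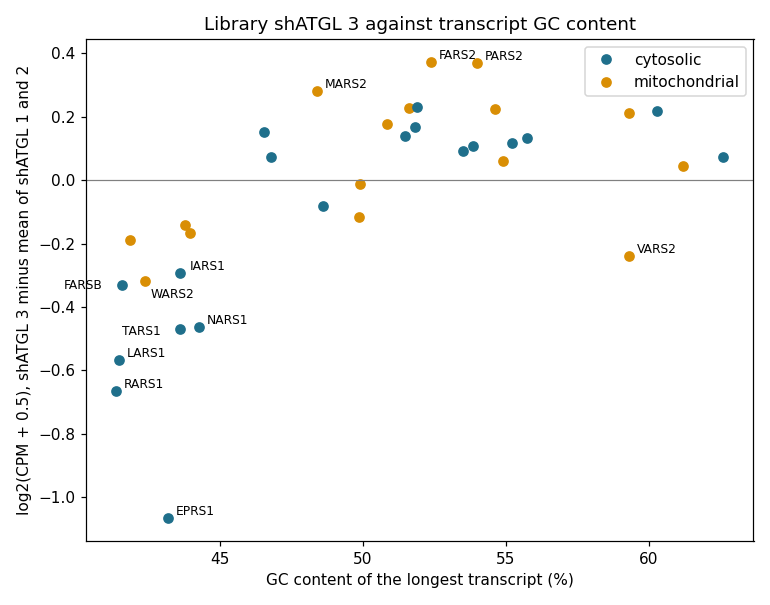
Difference of shATGL 3 from the mean of shATGL 1 and 2 (vertical axis, log2(CPM + 0.5)) against the GC content of the longest transcript (horizontal axis, percent), 1 point for each synthetase gene (blue for cytosolic, orange for mitochondrial). All 11 genes under 45% GC lie below 0, with *EPRS1* lowest at −1.07, and 4 of the 24 others do.

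Without shATGL 3, 8 synthetase genes had an adjusted p-value under 0.05 (edgeR, 5 libraries). *EPRS1* (log2 fold change 0.64, adjusted p = 0.00381), *RARS1* (0.34, adjusted p = 0.0151) and *LARS1* (0.28, adjusted p = 0.0428 from edgeR) were higher, where 7.94% of all genes tested in that fit were. *KARS1* and *FARSA* (−0.23 each), *SARS1* (−0.23) and the mitochondrial glutamate and methionine enzymes *EARS2* (−0.23) and *MARS2* (−0.31) were lower, where 6.07% of all genes were. Their adjusted p-values ran from 0.0251 to 0.0476 (edgeR). *EARS2* shares 370 exon bases with *UBFD1* on the opposite strand. With shATGL 3 included, *EARS2* had a log2 fold change of −0.15 and *MARS2* of −0.21, with adjusted p-values of 0.515 and 0.475 from edgeR.

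Grouped by structure, the class I cytosolic enzymes had 5 genes higher and 5 lower (median log2 fold change 0.03), and the class II enzymes 3 higher and 7 lower (median −0.06), with *EPRS1* in both. On the TPM scale 10 of the class I and 7 of the class II genes were higher. Only 24.7% of the 17874 genes with a TPM above 0 in every library were lower on that scale. This share also stands beside the TPM counts of the lists that follow. Of the 7 enzymes of the multisynthetase complex, 5 were higher and 2 lower, *KARS1* and *QARS1* (median 0.09 with 6 libraries and 0.18 without shATGL 3), and on the TPM scale 6 were higher. With length and GC trends corrected, *EPRS1* (0.23), *RARS1* (0.067) and *MARS1* (0.038) were above 0. *IARS1* (−0.0043), *LARS1* (−0.022), *QARS1* (−0.13) and *KARS1* (−0.17) were then below 0. None of the 7 enzymes of the complex passed the adjusted threshold with 6 libraries. Its scaffold *AIMP1* was at 64.8, 71.1 and 56.1 CPM in shNC and at 86.1, 91.4 and 50.1 CPM in shATGL, so that, as in *EPRS1*, shATGL 1 and 2 were highest and shATGL 3 lowest, on a transcript of 36.3% GC. The scaffold *AIMP2* had a log2 fold change of −0.21 (edgeR adjusted p = 0.439) and *EEF1E1* of −0.06. The 6 cytosolic genes with the element TGATGCAA had a median log2 fold change of 0.03 (range −0.04 to 0.09), and the 10 others with a promoter entry −0.10 (range −0.18 to 0.37). With length and GC trends corrected, *IARS1*, *NARS1* and *TARS1* of the former went below 0. The difference between the sets was not tested. Over a list of 11 synthetase genes described as ATF4 targets the median was −0.03, with 5 higher and 6 lower (10 higher and 1 lower on the TPM scale). *ATF4* itself was at 383, 359.7 and 410.3 CPM in shNC and at 318, 312 and 364 CPM in shATGL. Of the latter only shATGL 3 was inside the range of shNC (log2 fold change −0.21, edgeR adjusted p = 0.399).

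The remaining cytosolic genes had log2 fold changes of −0.13 (*QARS1*, for glutamine), −0.09 (*WARS1*, tryptophan), −0.06 (*YARS1*, tyrosine), −0.04 (*CARS1*), −0.03 (*AARS1*, alanine), −0.01 (*FARSB*), 0.02 (*NARS1*), 0.06 (*MARS1*, methionine) and 0.09 (*IARS1*). *MARS1* shares 519 exon bases with *ARHGAP9* and 355 with *DDIT3*, both on the opposite strand. The remaining mitochondrial genes were at −0.26 (*FARS2* and *PARS2*), −0.10 (*VARS2*), −0.08 (*NARS2*), −0.05 (*LARS2*), −0.02 (*CARS2*), −0.01 (*HARS2* and *IARS2*), −0.0025 (*SARS2*), 0.01 (*RARS2*), 0.02 (*WARS2*) and 0.05 (*TARS2*). *FARS2* and *PARS2*, both low, were at 10.7 ± 1.05 and 7.60 ± 0.392 CPM in shNC (SD, n = 3). In the libraries labelled shATGL they were at 8.93 ± 1.46 and 6.35 ± 1.08 CPM (SD, n = 3). Adjusted p-values of these genes were 0.493 or more (edgeR). Summed over the 16 mitochondrial enzymes, the libraries ran from 730 to 748 CPM. Each shNC library was at 748 CPM, above shATGL 1 to 3 at 738, 730 and 737 CPM. On the TPM scale this sum ran from 492 in shNC 3 to 583 in shATGL 1, and the groups overlapped. The cytosolic sum ran from 3492 CPM in shATGL 3 to 3932 CPM in shATGL 1.

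Genes that act beside the synthetases were counted from lists written for this purpose. With 6 libraries, 0 of these 54 genes had an adjusted p-value under 0.05 in edgeR. Without shATGL 3, 5 were higher and 10 lower at that threshold (edgeR), where 7.94% and 6.07% of all genes were. Of 21 genes of tRNA maturation and modification, 1 was higher and 5 lower at an unadjusted p-value under 0.05, where 5.77% and 5.94% of all genes were, as for the lists that follow. *PRORP*, the nuclease of mitochondrial RNase P, was at 15.8, 17.3 and 19.2 CPM against 23.6, 29.1 and 26.6 CPM, every library labelled shATGL being higher (log2 fold change 0.60, edgeR adjusted p = 0.392). DESeq2 gave it an adjusted p of 0.0112, where 0.467% of the genes that it gave an adjusted p passed and were higher, and *PRORP* was the 1 gene of the 54 to pass with that tool. Without shATGL 3 its adjusted p was 0.0206 (edgeR). Its counts may share reads with ENSG00000258790, which spans the same locus. The 5 lower genes were *TSEN34* (−0.26) of the tRNA splicing endonuclease, *CLP1* (−0.24), *HSD17B10* (−0.23), a partner of *PRORP*, the tRNA ligase *RTCB* (−0.21) and *POP1* (−0.15) of nuclear RNase P. All 6 cytosolic elongation factors were lower with TMM scaling (median −0.09) and 2 of them on the TPM scale, with *EEF1B2* (−0.27) and *EEF1A1* (−0.12) at an unadjusted p-value under 0.05. *EEF1A1* has many near-identical copies in the genome, so its count is uncertain. The 4 genes listed as mitochondrial elongation factors (*TUFM*, *TSFM*, *GFM1* and *GFM2*) were lower with TMM scaling (median −0.08). On the TPM scale 0 of them were lower, and 0 were at that threshold. In the 6 genes of trans-editing and selenocysteine, *SEPSECS*, which makes selenocysteine on its tRNA, was higher at an unadjusted p-value under 0.05 (0.39), and 4 of the 6 had a log2 fold change below 0 (3 on the TPM scale). Of the 4 helpers of mitochondrial tRNA charging 3 were below 0 with TMM scaling and 2 on the TPM scale (median −0.09 with TMM), with 0 under the unadjusted threshold. In the 10 genes of the amino acid response the median was −0.12, with *ATF4* lower and *ATF3*, at 0.952 to 2.16 CPM, higher (0.62) under it. That median was 0.016 on the TPM scale.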

How the data were processed

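MV4-11 cells were sequenced in 6 libraries, 3 labelled shNC and 3 labelled shATGL, and grouped by the treatment label. The authors filtered reads with FASTP and deposited raw read counts per Ensembl gene for 61806 genes. Aligner, counter, annotation and strand setting are not given in the sources used here. The submitters' processing notes name mm10, a mouse build, while the gene IDs are human, so gene coordinates come from GENCODE 29 on GRCh38 and not from the counted data. Symbols were matched for 61757 IDs and positions for 58254.

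Analysis used edgeR 4.0.16 in R 4.3.3 (filterByExpr with a minimum count of 10 and a minimum total of 15, TMM, quasi-likelihood test, Benjamini-Hochberg adjustment over 19149 genes). CPM are counts over the TMM library size. TPM were computed from all genes with a length. A gene alone was tested by an exact permutation test (two-sided). Total counts were 59674064 to 74808280, and precision is lowest for the genes with the fewest counts. The fits were tested on simulated data. Every synthetase gene was named, with values in each library for those with an unadjusted p-value under 0.05 and the 3 most abundant of each compartment. Other genes with values in each library (*EPRS1*, *RARS1*, *LARS1*, *GARS1*, *HARS1*, *AARS2*, *AIMP1*, *ATF4* and *PRORP*) were chosen after their values were seen. Of the other lists, genes with an unadjusted p-value under 0.05 were named. The members, lists and tests were chosen with earlier results of these data known. Alternatives were DESeq2 1.42.0, its size factors, other filters, a replicate block, leaving out each library, and natural splines (4 degrees of freedom) for length and GC. Some of the marker genes are not reported here.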

Additional observations from a re-analysis of the deposited data

How the results depend on the processing

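The number of synthetase genes with an unadjusted p-value under 0.05 was 3 in the analysis as reported, 3 with DESeq2's size factors or no filter, 2 with a minimum of 10 counts per library, 0 with DESeq2, and 5 with length and GC trends corrected. With one library left out it went from 0 to 17 (17 without shATGL 3). At an adjusted p-value under 0.05 it was 0 with 6 libraries under each of these settings, and with one library left out it went from 0 to 8 (8 without shATGL 3). In the fit without shATGL 3, 7.94% of all genes tested were higher and 6.07% lower at that adjusted threshold. The median log2 fold change of the cytosolic enzymes, −0.03, was −0.081 with length and GC trends corrected and 0.11 on the TPM scale, and −0.059 to −0.0072 with one library left out. That of the mitochondrial enzymes, −0.04, was −0.083 with the correction and 0.099 on the TPM scale. The ratio of the summed levels was 4.66 with the longest transcript. The TPM scale was chosen after seeing the data. The cause of these changes was not tested.

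With the replicate number as a replicate block, 6 synthetase genes had an unadjusted p-value under 0.05 and 0 an adjusted one. Deviations of libraries with the same number had correlations of −0.020, 0.110 and 0.189 for numbers 1 to 3 over 13935 genes. Those with different numbers ran from −0.181 to 0.102. The values for numbers 2 and 3 were above all of these, and that for number 1 was not. The correlations do not settle whether the numbers pair the libraries, and the main fit used no block.

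Every synthetase gene kept its direction with DESeq2, DESeq2's size factors, no filter and the block. With length and GC trends corrected 7 changed sign, *IARS1* (−0.0043), *LARS1* (−0.022), *NARS1* (−0.033), *TARS1* (−0.043), *RARS2* (−0.043), *WARS2* (−0.051) and *HARS2* (0.0051). With the minimum of 10 counts *SARS2* did (0.0021). With one library left out, these genes changed sign and ran from the lowest to the highest value given: *PNPLA2* −0.024 to 0.033, *AARS1* −0.059 to 0.0011, *CARS1* −0.12 to 0.0041, *FARSB* −0.069 to 0.095, *NARS1* −0.065 to 0.15, *TARS1* −0.035 to 0.19, *VARS1* −0.032 to 0.017, *CARS2* −0.044 to 0.0070, *HARS2* −0.047 to 0.022, *IARS2* −0.049 to 0.038, *RARS2* −0.044 to 0.072, *SARS2* −0.027 to 0.036, *TARS2* −0.035 to 0.11, *WARS2* −0.070 to 0.12.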
